A study of Capra hircus with 4 samples.

Results

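Delta cells are the islet cells that make somatostatin. In the goat pancreas they were taken as barcodes with at least 3500 UMIs and 500 genes in which the somatostatin gene SST held at least 2% of the UMIs and more than INS, GCG and PPY together, with the acinar genes PRSS2, CLPS, SYCN, CTRC and CEL under 5% of UMIs and no count of the leukocyte gene PTPRC. By this rule 267 of 16177 barcodes that passed the depth limits were delta cells, 1.65% of all. The series holds single-cell RNA sequencing of dissociated pancreas from 4 female twin Liuyang black goats. The labels give 2 animals aged 10 days, when goats do not yet ruminate, and 2 aged 6 months, when they do. The tissue was digested with collagenase IV, dispase and DNase I, dead cells were removed, and whole cells were captured on the 10x platform. The deposited counts are UMIs (single molecules of RNA tagged before amplification) per gene and barcode, in 1 matrix of 4 libraries numbered 1 to 4. No label ties a library number to an animal or an age, so every value is given per library, in the order 1 to 4, with no age, no test and no p-value.

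Somatostatin acts on neighbouring beta and alpha cells and lowers their release of insulin and glucagon. Delta cells in mammals carry long processes and are known to respond to signals from the gut, the nerves and the neighbouring islet cells. In mouse, the homeobox factor HHEX is needed to keep the delta cell state. Cells of the other hormones served as comparison and were chosen by the same limits: 2280 beta cells by INS, 964 pancreatic polypeptide (PP) cells by PPY and 229 alpha cells by GCG. A further 12188 barcodes in which the 4 hormones together held under 2% of the UMIs are called non-endocrine cells.

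Libraries 1 to 4 held 60, 81, 107 and 19 delta cells. These were 2.13% (exact Clopper-Pearson 95% interval 1.63 to 2.73), 1.40% (1.12 to 1.74), 2.35% (1.93 to 2.83) and 0.625% (0.377 to 0.975) of the barcodes of each library, intervals that cover counting error only. Among cells of the 4 hormone classes, delta cells made up 8.33%, 7.91%, 9.39% and 2.22%. Library 4 had the lowest share by either denominator, and its interval does not overlap those of the other libraries. It had 727 beta cells, against 339, 667 and 547 in libraries 1 to 3.

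SST chose the cells, so its level is a description. It made up 17.7%, 12.3%, 16.1% and 19% of all UMIs of the delta cells of libraries 1 to 4, and a single cell held between 2.63% and 36.2%. The threshold fell in a gap: 3 members stood between 2% and 3%, and 1 barcode, at 1.60%, stood just below it. A further 35 barcodes had SST at 2% or more but not above the other hormones, and 6 were lost to the acinar limit. No barcode sequence was shared between delta cells of different libraries (29 of the 16148 distinct barcodes at the depth limit occurred in more than 1 library).

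**Figure D1:**
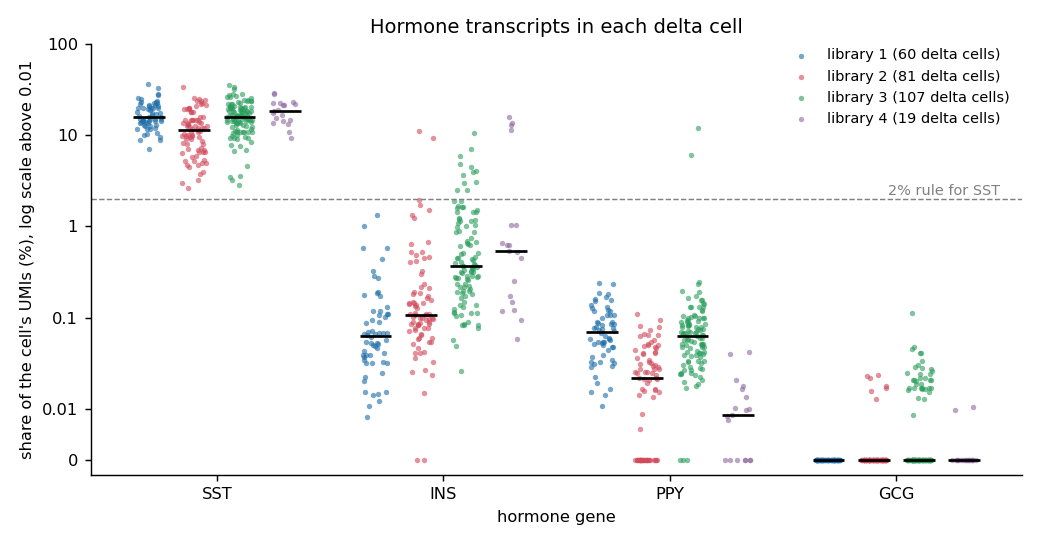
Share of each delta cell's UMIs (vertical axis, percent, log scale above 0.01) held by SST, INS, PPY and GCG, with 1 point per cell, colours for libraries 1 to 4 and black bars at the medians. SST stands at medians of 15.8%, 11.3%, 16% and 18.2%, INS reaches 15.7% in 1 cell of library 4, and GCG stays at or below 0.113%.

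The other hormones were far lower in the same cells. The median delta cell had INS at 0.0632%, 0.106%, 0.369% and 0.536% of its UMIs in libraries 1 to 4, against 0.0266%, 0.0471%, 0.105% and 0.0646% in the median non-endocrine cell, where INS should be absent. In 2, 7, 30 and 6 delta cells INS reached 1% or more. These 45 cells had a median of 6052 UMIs, against 5822 in the other 222. Of the 45, 1 was among the 5% of barcodes with the highest Scrublet doublet score of its library, against 16 of the 222. By library, these were 0 of 2, 1 of 7, 0 of 30 and 0 of 6 cells. Among the others they were 5 of 58, 8 of 74, 3 of 77 and 0 of 13, so the pooled counts mix libraries of unlike make-up. HHEX stood at 272 CPM (counts per 1000000 UMIs) in the sum of the 45 and at 391 CPM in that of the 222. By library it stood at 224, 231, 337 and 143 CPM in the former and 418, 437, 338 and 316 CPM in the latter. In library 3, which held 30 of the 45, the levels were thus alike. The beta transcript SLC2A2 stood at 19.7 CPM in the 45 and 0.708 CPM in the 222 (6 and 1 counts), ASB9 at 29.5 and 2.12 CPM (9 and 3 counts) and ERO1B at 85.3 and 15.6 CPM (26 and 22 counts). LOC108633189, which was higher in alpha than in beta cells, stood at 600.4 CPM in the 45 and 87.8 CPM in the 222. GAD2 had 0 and 2 counts. NKX6-1 had 2 counts and MAFA 1 in the 45, with none in the 222. Much of this lay in the 6 such cells of library 4, which held 4 of the 6 counts of SLC2A2, all 9 of ASB9, 21 of the 26 of ERO1B and all those of NKX6-1 and MAFA. In libraries 1 to 3, the 39 cells with INS at 1% or more and the other 209 had SLC2A2 at 8.52 and 0.778 CPM (2 counts and 1), ERO1B at 21.3 and 11.7 CPM (5 and 15 counts) and LOC108633189 at 285 and 89.5 CPM, and ASB9 had 0 and 3 counts. The part of doublets and free RNA in these values was not tested. PPY reached 11.9% in 1 cell of library 3, and 79.9% of the PPY counts of that library's delta cells came from 2 cells.

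Median depth was 7380, 5144, 5068 and 9721 UMIs per delta cell, 12627, 6506, 8072 and 14935 per beta cell, and 5363.5, 5930.5, 7162 and 7735 per non-endocrine cell. It was 21816.5, 9574, 10542 and 11921 per PP cell, and 7870 and 9649 per alpha cell of libraries 2 and 3. Counts were summed over the cells of a class within a library and scaled to CPM, and classes were compared by the log2 ratio of CPM + 1, delta over the other class. A gene was called higher or lower when this ratio reached 1 or -1 in every library with at least 20 cells of both classes, given 20 counts or more in the higher class and 20 expected in the other. Libraries 1, 2 and 3 thus entered the calls against beta, PP and non-endocrine cells, and libraries 2 and 3 those against alpha cells. The 19 delta cells of library 4 entered none and serve as values not used by the calls. Cells of 1 library share its handling and are not replicates, so a call describes these libraries.

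Against beta cells, 122 of 2888 genes were higher in delta cells (4.22%) and 44 lower (1.52%). Against PP cells, 182 of 2760 were higher (6.59%) and 32 lower (1.16%). Against alpha cells, 192 of 3610 were higher (5.32%) and 86 lower (2.38%), and against non-endocrine cells 729 of 3048 were higher (23.9%) and 254 lower (8.33%). The median over all genes tested was a log2 ratio of 0.34, 0.53, 0.14 and 0.73 in these 4 comparisons. Against PP cells the median gene stood at 0.93, 0.44 and 0.42 in libraries 1 to 3. In library 1 a ratio of 1 against PP cells was thus close to the median gene. Relative to that median, the counts higher and lower were 77 and 57 against beta, 80 and 55 against PP, 154 and 102 against alpha, and 348 and 409 against non-endocrine cells. With the 4 hormones left out of the total, they were 82 and 78 against beta and 91 and 74 against PP. Calls named below are those in CPM, and those lost relative to the median are given as such for the genes described. Because the cells were grouped by their transcripts, these differences describe the classes and are no test of them.

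Of 2685 genes that could be compared with all 3 other hormone classes, 46 were higher in delta cells than in each of them (1.71%) and 6 were lower than in each (0.223%). Relative to the median gene, 31 of the 46 and all 6 were called again, and CELF4, RET, IFNGR2, TFPI2, INA and FBP1 were among the 15 not called. The 46 include transcription factors (HHEX, EHF), secreted proteins (SPP1, RBP4, FRZB, TIMP1, TFPI2, OLFML3), receptors and their partners (SCTR, RAMP1, MET, RET, IFNGR2, GPC3), retinoid and sugar metabolism (CRABP1, HK1, FBP1) and genes known from neurons (NNAT, INA, CELF4). Among the 46 are 3 genes with no name beyond their locus number. The 3 comparisons share the same delta cells, so the overlap of their calls is not read as a result.

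HHEX led the genes that mark goat delta cells. It stood at 410.3, 419, 338 and 254 CPM in delta cells, against 6.00, 3.37, 7.29 and 2.01 in beta, 1.28, 1.56, 0.918 and 1.52 in PP and 17.3, 11.8, 16 and 29.4 in non-endocrine cells, and had 0 and 1 counts in the alpha cells of libraries 2 and 3. Delta cells were thus higher in every library, library 4 included, and the ranges do not overlap. The median log2 ratio was 5.88 against beta (range 5.35 to 6.59) and 7.47 against PP cells. After each cell was thinned to 3500 UMIs, HHEX was seen in 78.3%, 79%, 64.5% and 57.9% of delta cells and in 2.36%, 0.75%, 0.731% and 1.79% of beta cells. Non-endocrine cells, a class not split by cell type, showed HHEX in 4.45%, 4.1%, 5.16% and 8.39%.

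SPP1, the secreted glycoprotein osteopontin, stood at 708, 356, 441 and 371 CPM in delta cells, against 11, 5.25, 14.2 and 2.18 in beta and 2.05, 2.6, 1.84 and 0 in PP cells. The median log2 ratio was 5.84 against beta, 7.28 against PP and 4.74 against alpha cells. SPP1 is widely used as a marker of pancreatic ducts, and non-endocrine cells as a whole had 6.33, 6.96, 19.7 and 22.8 CPM. Duct cells were not set apart within that mixed class, so the level of SPP1 in ducts is not given. SPP1 was seen in 90.0%, 65.4%, 68.2% and 57.9% of thinned delta cells.

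RBP4, the carrier of retinol in blood, stood at 1454, 3097, 2760.4 and 4665 CPM in delta cells. Beta cells had 44.5, 1117, 342 and 277 CPM, a level that varied between libraries more than the delta level did. PP cells had 7.57, 30.1, 13.8 and 13.6 and alpha cells 8.7 and 21.1 CPM in libraries 2 and 3. The log2 ratio against beta was 1.47 to 5.00 over libraries 1 to 3, with the smallest value in library 2, where beta cells were highest. CRABP1, which binds retinoic acid inside the cell, stood at 196, 139.7, 103 and 45.8 CPM in delta cells, against 5.79, 2.44, 2.56 and 0.753 in beta and 0.898, 1.56, 1.15 and 0.758 in PP cells. Of 8 genes of retinoid, lipid and fuel metabolism measured against beta cells, RBP4, CRABP1 and LDHB were higher and 0 were lower. That was 37.5% called, beside 5.75% of all genes in either direction. LDHB, a lactate dehydrogenase, was lower than in alpha cells.

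SCTR, the receptor for the gut hormone secretin, stood at 134, 56.8, 82.8 and 56 CPM in delta cells, against 3.52, 1.12, 0.591 and 0 in beta, 5.00, 0.519, 0.689 and 0 in PP and 18.1, 6.37, 4.63 and 6.96 in non-endocrine cells. It was seen in 38.3%, 22.2%, 29% and 15.8% of thinned delta cells and in 2.37%, 1.19%, 1.22% and 0.441% of thinned non-endocrine cells. The receptor is well known from pancreatic ducts, whose cells were not compared on their own. RAMP1, the partner that turns the calcitonin receptor-like receptor into a receptor for CGRP, stood at 744, 956, 847 and 585 CPM in delta cells, against 23.4, 104, 81 and 9.54 in beta and 58.1, 208, 158 and 35.6 in PP cells.

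**Figure D2:**
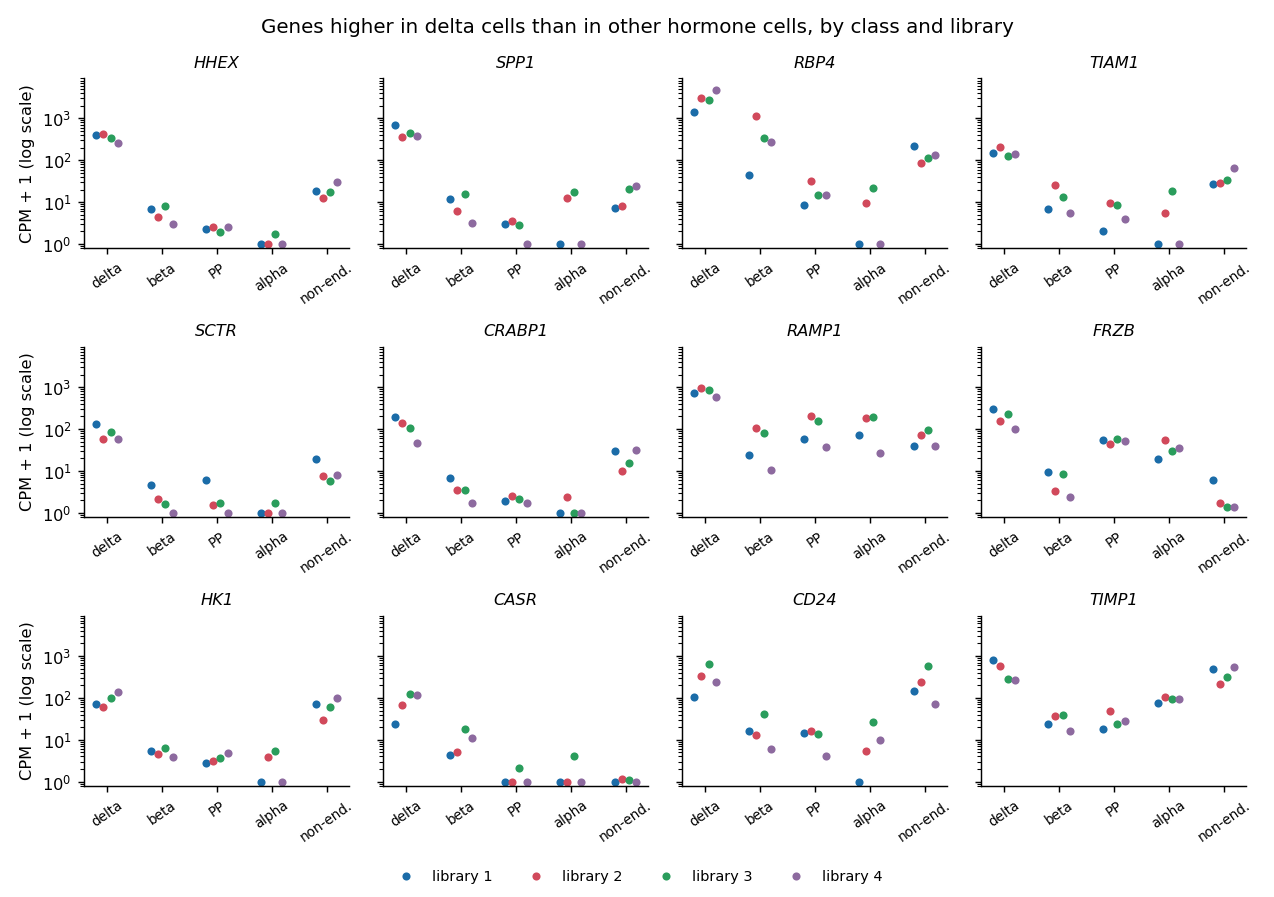
Level of 12 genes (vertical axis, CPM + 1, log scale) in delta, beta, PP, alpha and non-endocrine cells, with 1 point per library, and alpha points of libraries 1 and 4 resting on 5 and 10 cells. Delta cells stand above beta, PP and alpha cells for HHEX, SPP1, SCTR and HK1 in all 4 libraries, while non-endocrine cells stand above delta cells for CD24 in library 1 and for TIMP1 in libraries 3 and 4.

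Others of the 46 lie in signalling and the cell surface. FRZB, a secreted antagonist of Wnt ligands, had 308, 153, 227 and 102 CPM in delta cells, against 8.48, 2.25, 7.29 and 1.34 in beta and 52.5, 44.1, 55.6 and 51.5 in PP cells. MET, the receptor of hepatocyte growth factor, had 51, 72, 42.3 and 56 CPM in delta cells and 3.31, 11.2, 3.94 and 2.59 in beta cells. TIAM1, which activates the GTPase Rac, had 145, 212, 123 and 137 CPM in delta cells, against 6.00, 24.2, 12 and 4.43 in beta cells. NNAT, an imprinted gene of neuroendocrine cells, had 568, 936, 339.8 and 514 CPM in delta cells, 40.1, 60.9, 34.9 and 28 in beta and 17.3, 102, 60.4 and 68.2 in PP cells. The gene named NRGN, which the RefSeq table of the assembly ARS1.2 lists as a long non-coding RNA, had 115, 76.4, 112 and 56 CPM in delta cells and 8.48, 4.87, 7.89 and 4.43 in beta cells. FLRT1, an adhesion protein, had 142, 56.8, 60.9 and 148 CPM in delta cells, 3.93, 8.43, 3.75 and 1.25 in beta cells and no count in alpha cells. GALNT13, CTTNBP2, SLC7A14 and EHF were higher by a median log2 ratio of 3.35, 3.03, 2.90 and 2.80 against beta cells. INA, an intermediate filament of neurons, was higher against each class in CPM (median 3.94 against beta) and lost the call relative to the median gene, as did FBP1, an enzyme of gluconeogenesis (median 3.02 against beta and 1.55 against alpha).

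**Figure D3:**
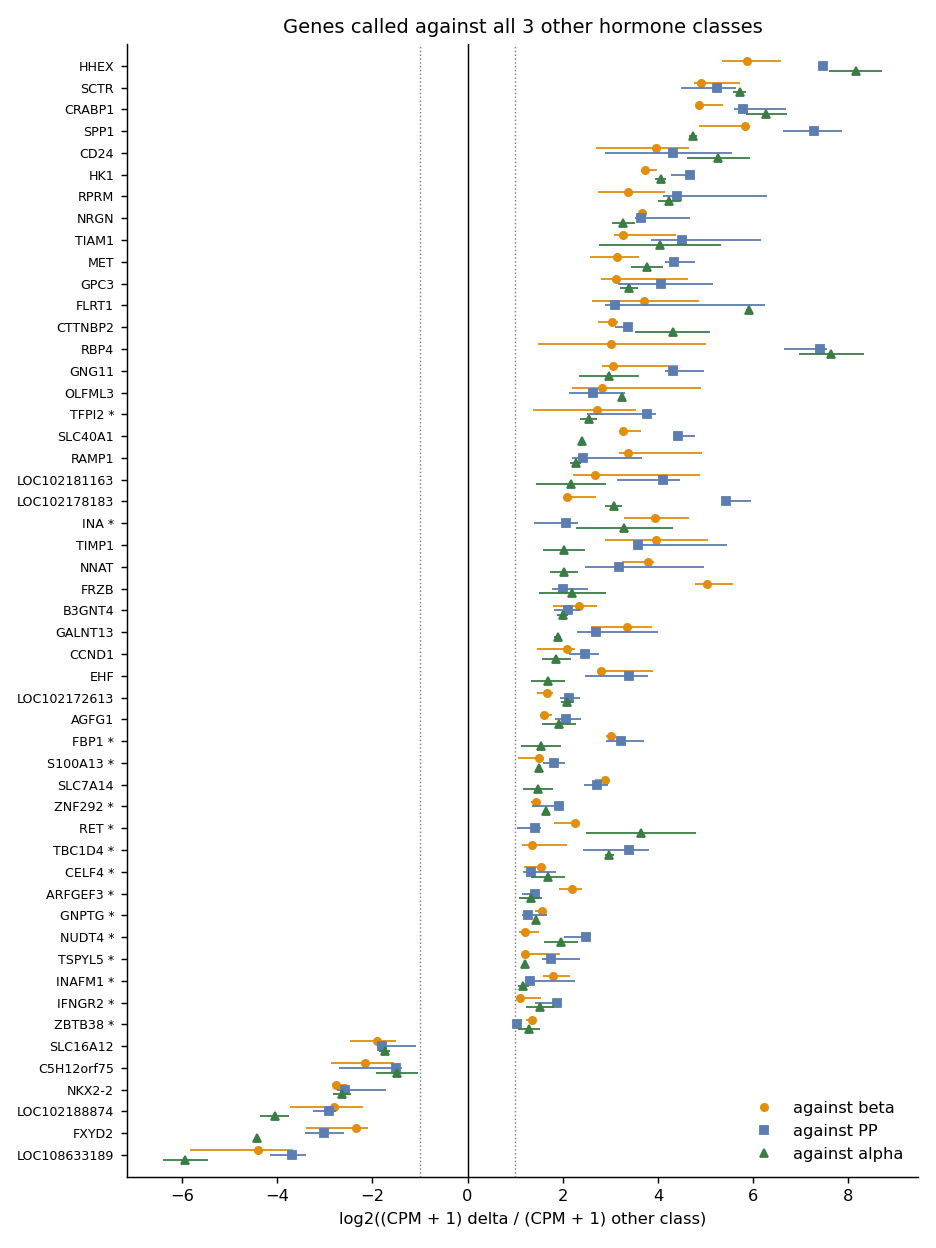
Log2 ratio of CPM + 1, delta over the other class (horizontal axis), for 45 of the 46 genes higher and the 6 genes lower than in all 3 other hormone classes, with points at the median and lines over the range of the libraries used. Orange circles stand for beta, blue squares for PP and green triangles for alpha cells, dotted lines mark 1 and -1, and an asterisk marks the 15 genes whose call was lost relative to the median gene.

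Of the 46 genes, 31 were also higher than in non-endocrine cells and 15 were not called against them. The 15 include HK1, CD24, TIMP1, GPC3, GNG11, RPRM, SLC40A1, CCND1 and OLFML3, which were higher in delta cells than in beta, PP and alpha cells. Not being called does not show that delta and non-endocrine cells had equal levels. TIMP1, an inhibitor of matrix proteases, had 799, 569.7, 289 and 265 CPM in delta cells, 23.2, 35.8, 38.2 and 15.2 in beta cells and 483, 215, 315 and 546 in non-endocrine cells. HK1, the hexokinase of most tissues, had 70.2, 58.9, 98 and 137 CPM in delta cells, 4.34, 3.56, 5.32 and 2.93 in beta cells and 68.7, 28.8, 59 and 100.3 in non-endocrine cells. CD24, a surface glycoprotein, had 106, 327, 646 and 239 CPM in delta cells, 15.5, 12, 40.4 and 5.1 in beta cells and 146, 234, 578 and 69.9 in non-endocrine cells. SLC40A1, the iron exporter ferroportin, had 89.3, 120.0, 140.3 and 122 CPM in delta cells and 6.2, 11.6, 14 and 7.45 in beta cells. GPC3, a glypican of the cell surface, had 361, 290.3, 161 and 219 CPM in delta cells, 13.6, 40.8, 17.7 and 8.03 in beta and 327, 342, 169 and 222 in non-endocrine cells, and GNG11, a G protein subunit, had a median log2 ratio of 3.06 against beta cells. RPRM, a mediator of cell cycle arrest, stood at 346, 151, 99.7 and 173 CPM in delta cells and 18.6, 13.7, 14 and 10.5 in beta cells.

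Markers of stroma were also read in delta cells, and their part in these levels was not tested. The 10 stellate and fibroblast markers summed to 1154, 6465, 2382 and 2467 CPM in delta cells, 367, 4390.0, 3808 and 1270.2 in beta, 314, 2554, 1355 and 1865 in PP and 11849.7, 23346, 25893 and 40286 in non-endocrine cells. Delta cells stood above beta cells in libraries 1, 2 and 4 and below them in library 3, and 0 of the 6 measured markers were called against beta cells. Against PP cells they stood higher in all 4 libraries. Of 6 measured markers 1, COL6A3, was called higher (16.7%, beside 7.75% of all genes), though not relative to the median gene. DCN, which stellate cells and fibroblasts express, was seen in 11, 20, 8 and 5 delta cells, and 47.9%, 32.9%, 61.0% and 75.6% of its counts there came from 2 cells. COL1A1, another of the 10 markers, was seen more widely in libraries 2 and 3. It was seen in 9, 64, 59 and 6 delta cells, and the median cell had 0, 334, 135 and 0 CPM. Of its counts, 66.3%, 32.3%, 58.8% and 66.1% came from 2 cells. TIMP1 was seen in 55, 64, 71 and 13 delta cells, with 8.24%, 9.20%, 8.19% and 28.8% of counts from 2 cells. Without the 5% of barcodes with the highest Scrublet scores, 44 of the 46 genes were called again. The endothelial markers summed to 10.2 to 38.9 CPM and the immune markers to 31.9 to 37.2 CPM in delta cells, against 106 to 532 and 171 to 4789 CPM in non-endocrine cells.

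The 6 genes lower in delta cells than in all 3 classes were NKX2-2, FXYD2, C5H12orf75, SLC16A12, LOC108633189 and LOC102188874. NKX2-2, a transcription factor of islet cells, had 6, 6, 5 and 6 counts in delta cells, or 12.8, 13.1, 8.45 and 30.5 CPM, against 92.9, 101, 54 and 105 in beta, 43.9, 82.6, 62.4 and 66.7 in PP and 75.4 and 65.6 CPM in alpha cells of libraries 2 and 3. Its call was lost when barcodes with the highest doublet scores were left out or when the hormone had to reach 5 times the other 3, and that of SLC16A12 was lost when it had to reach 5% of UMIs or with a pseudocount of 10 CPM. FXYD2, a regulator of the sodium pump, had 29.8, 15.3, 35.5 and 30.5 CPM in delta cells, against 155, 171, 155 and 175 in beta and 185, 173, 293 and 414 in PP cells. SLC16A12, a transporter of the monocarboxylate family, had a median log2 ratio of -1.90 against beta cells. LOC102188874 had 1477, 1794, 3295 and 2452 CPM in delta cells, 19571, 12469, 15087 and 16872 in beta and 36624 and 44013 in alpha cells. LOC108633189 had 76.5, 103, 167 and 636 CPM in delta cells and 4435, 2173, 2123 and 3764 in beta cells. Alpha cells of libraries 2 and 3 had more of it, 8740 and 7395 CPM. In library 4, the 6 delta cells with INS at 1% or more held 116 of its counts and the other 13 held 9. Both locus numbers overlap on the RefSeq assembly ARS1.2, so reads may be split between them.

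Transcription factors of the islet split by class. Of 40 matched factors, 15 had enough counts against beta cells, and 3 were higher (HHEX, ETV1 and SOX4, only HHEX of them relative to the median gene) and 3 lower, NKX2-2 and PAX6 among them. The list had a median log2 ratio of 0.45 against beta, beside 0.34 over all genes. Against PP cells 4 of 13 were higher and 3 lower, and against alpha cells 3 of 22 were higher and 6 lower. The shares called in either direction were 40%, 53.8% and 40.9% against beta, PP and alpha cells. Over all genes they were 5.75%, 7.75% and 7.7%. PAX6, which acts in all islet cells, had 99.9, 155, 149 and 168 CPM in delta cells, against 350.1, 395, 341 and 413 in beta cells.

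IRX2, a factor of alpha cells, had no count in any of the 267 delta cells. Alpha cells of libraries 2 and 3 had 271 and 232 CPM, at least 85.9-fold higher, taking 3 counts over both libraries as the floor. IRX1 had none in delta cells and 62.4 and 43.7 CPM in alpha cells, at least 17.5-fold higher.

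The beta cell factors NKX6-1 and MAFA had no count in delta cells of libraries 1 to 3, and 2 and 1 counts in library 4. Beta cells had 11.6, 15.9, 10.8 and 17.5 CPM of NKX6-1 and 4.55, 5.99, 9.07 and 9.54 CPM of MAFA. PDX1, a factor that delta cells share with beta cells in mouse, stood at 10.6, 17.5, 11.8 and 10.2 CPM in delta cells and 6.41, 17.8, 11 and 11.1 in beta cells, too few counts to be called. ISL1, which acts in all islet cells, had 223, 273, 318 and 254 CPM in delta cells, 124, 183, 130.5 and 106 in beta, 41.7, 81, 81.7 and 115 in PP and 123 and 96.5 in alpha cells. It was called higher than in PP and alpha cells, against alpha cells not relative to the median gene. MEIS2, a homeobox factor that is also on the list of PP markers, had 869, 1054, 913 and 921 CPM in delta cells. It had 100.4, 182, 117 and 167 in PP and 52.2 and 53.5 in alpha cells, and 514, 614, 562 and 382 in beta cells. ETV1 stood between the classes, at 128, 133, 159 and 198 CPM in delta cells, 55.8, 36.9, 38.4 and 73.3 in beta and 293, 449.8, 533 and 832 in PP cells.

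**Figure D4:**
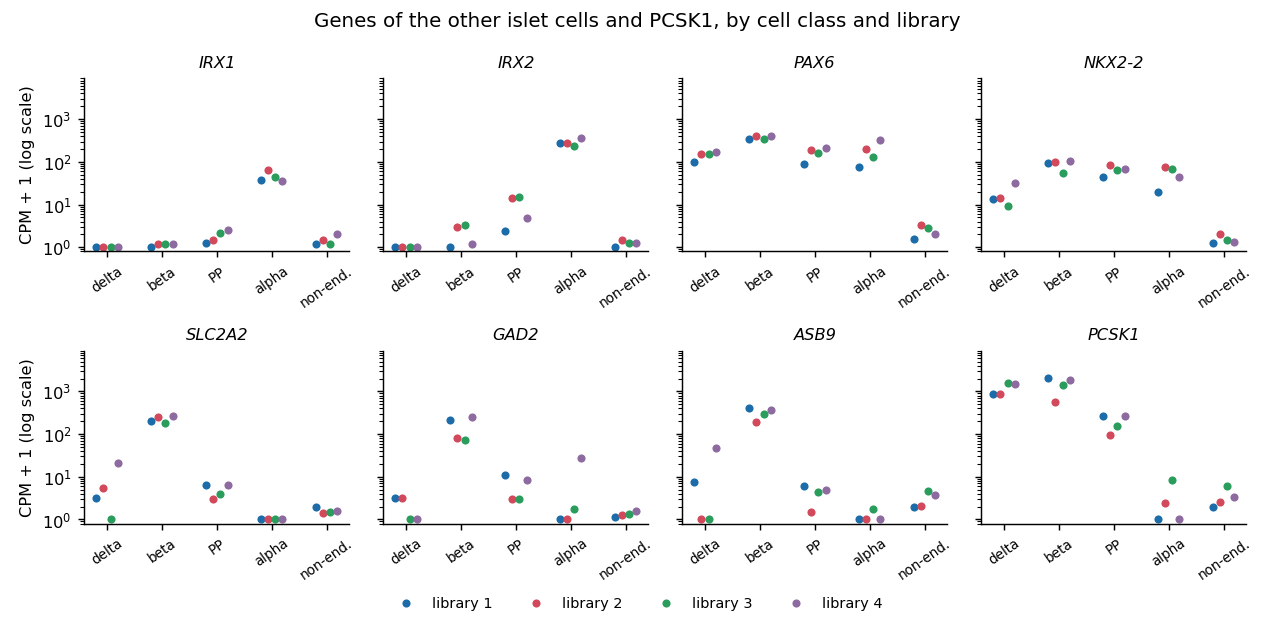
Level of 8 genes (vertical axis, CPM + 1, log scale) in delta, beta, PP, alpha and non-endocrine cells, with 1 point per library, and alpha points of libraries 1 and 4 resting on 5 and 10 cells. IRX1 and IRX2 are at 0 in the delta cells of all 4 libraries, SLC2A2, GAD2 and ASB9 stand high in beta cells, and PCSK1 is high in delta and beta cells.

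Against beta cells, the genes lower in delta cells by the widest margin included several known from beta cells. SLC2A2, the glucose transporter of beta cells, had 1, 2, 0 and 4 counts in delta cells, against 200.4, 253, 183 and 261 CPM in beta cells. Over libraries 1 to 3 beta cells were 108-fold higher (exact 95% counting interval 37 to 524). Such intervals cover counting error only and not the spread between libraries. GAD2, which makes the transmitter GABA, had 1, 1, 0 and 0 counts in delta cells and 213, 81.9, 71.2 and 251 CPM in beta cells, where it was 91.2-fold higher (25.2 to 754). TH, the first enzyme of catecholamine synthesis, had 1, 1, 1 and 0 counts in delta cells and 177, 48.7, 174 and 68 CPM in beta cells. UCN3, a peptide that beta cells release and that acts on delta cells in mouse, had 1, 0, 1 and 0 counts in delta cells and 83.6, 69.7, 54.2 and 163 CPM in beta cells. ASB9 had 3, 0, 0 and 9 counts in delta cells and 405, 194, 295 and 360.0 CPM in beta cells.

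G6PC2, the glucose phosphatase of beta cells, had no count in delta cells, and beta cells were at least 22.7-fold higher. NELL2, CRYBA2, TSPAN33, IL17RD and MYO3A had median log2 ratios of -6.25, -5.64, -4.60, -4.48 and -4.26 against beta cells. ERO1B, an enzyme of disulfide formation in proinsulin, had 14.9, 6.55, 16.9 and 142 CPM in delta cells, against 142, 115, 401 and 495 in beta cells, and library 4 was highest in both classes. Of the 16 matched beta markers 7 were measured, and 3 were lower (SLC2A2, UCN3 and ERO1B) and 2 higher (HOPX and NPTX2). That was 71.4% called, beside 5.75% of all genes in either direction. HOPX, a transcriptional cofactor, had 310.4, 189.9, 412 and 361 CPM in delta cells, against 37, 16.5, 34.5 and 31.5 in beta cells. Beyond the genes shared by all 3 comparisons, BCAS1 and F10, which encodes a clotting factor, were also among the widest differences higher in delta than in beta cells. BCAS1 had 78.7, 146, 94.7 and 142 CPM in delta cells and 3.93, 1.12, 0.986 and 1.17 in beta cells, and F10 had 153, 120.0, 216 and 66.1 CPM in delta cells and 10.3, 23.8, 15.2 and 2.34 in beta cells.

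Among the genes higher in delta cells than in PP and alpha cells were some that were not called against beta cells, and 5 are given here as examples chosen after their values were seen. PCSK1, the enzyme that cuts proinsulin, had 865, 875, 1542 and 1480.3 CPM in delta cells and 2038, 578, 1415 and 1847 in beta cells and was not called between them. PP cells had 265, 94.5, 155 and 259 CPM, and alpha cells had 1.45 and 7.54 in libraries 2 and 3, a median log2 ratio of 7.99. It was called higher than in both, against PP cells not relative to the median gene. DAPL1 had 242, 378, 221 and 183 CPM in delta cells, 120.0, 204, 105 and 69.1 in beta cells, 3.08, 6.23, 3.67 and 2.27 in PP cells and no count in alpha cells, so that delta cells were at least 195-fold higher than alpha cells. MGAT5B, a glycosyltransferase, had 68, 74.2, 67.6 and 66.1 CPM in delta cells, 36.4, 34.7, 31.7 and 6.02 in beta, 1.54, 2.08, 1.38 and 0 in PP and 0 and 2.26 in alpha cells of libraries 2 and 3. Beta cells were thus lower in every library, and without library 1 MGAT5B was called higher than in beta cells too. KCNMB4, a subunit of calcium-gated potassium channels, had 202, 151, 108 and 107 CPM in delta cells, 206, 117, 58.7 and 122 in beta, 7.05, 7.27, 4.36 and 4.55 in PP and 2.9 and 3.02 in alpha cells. HADH, an enzyme of fatty acid oxidation, had 95.7, 74.2, 122 and 71.2 CPM in delta cells, 252, 119.9, 314 and 267 in beta, 16.8, 11.9, 22.3 and 6.82 in PP and 7.25 and 18.1 in alpha cells, and delta cells stood below beta cells in every library.

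Against PP cells, the hormone gastrin was among the widest differences of genes lower in delta cells. GAST had 8.5, 107, 424 and 137 CPM in delta cells, against 659, 3236, 3036 and 189 in PP cells. It was seen in 4, 18, 50 and 4 delta cells, and 49.0% of the counts of library 2 and 25.1% of those of library 3 came from 2 cells. Non-endocrine cells had 1.05, 2.18, 2.56 and 0 CPM, and against alpha cells GAST was called higher in delta cells. LOC102185401, LOC106503280 and LOC106501767 were lower than in PP cells by median log2 ratios of -8.08, -7.14 and -7.04. CARTPT, a neuropeptide, had 31.9, 131, 272 and 285 CPM in delta cells, 125, 437, 553 and 139 in PP and 1362 and 4994 in alpha cells. Of 9 matched PP markers other than PPY, 3 were measured against PP cells. FXYD2 and CARTPT were lower and MEIS2 higher, or 100% called, beside 7.75% of all genes. The 9 summed to 963, 1299, 1286 and 1333 CPM in delta cells, above the 441, 833, 988 and 797 in PP cells. MEIS2 made up most of the sum in delta cells.

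Against alpha cells, 6 of 8 measured alpha markers were lower in delta cells, among them IRX2, CRYBA2, IRX1, DPP4 and TTR, with a list median of -5.22 beside 0.14 over all genes. The 6 were 75% of those measured, beside 7.7% of all genes called in either direction. TTR, a carrier of thyroid hormone and retinol-bound RBP4, had 2064, 3433, 2135 and 4690.1 CPM in delta cells, 17766 and 16173 in alpha and 1165, 4776, 2729 and 699 in beta cells. GPR119, a lipid receptor, had 0, 0, 1 and 0 counts in delta cells, against 103 and 202 CPM in alpha cells. CTSZ, a lysosomal protease, had 2, 0, 3 and 0 counts in delta cells, against 146 and 239.8 CPM in alpha cells, and C20H5orf38 had none, against 92.8 and 53.5 CPM. CHGA, the granule protein chromogranin A, had 2798, 3038, 2369.9 and 3047 CPM in delta cells, 16994 and 12168 in alpha and 6506, 6166, 4356 and 10529 in beta cells. It was called lower than in alpha cells, and lower than in beta cells only relative to the median gene.

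Delta cells carried the secretory equipment of an endocrine cell. Of 15 measured granins and prohormone processing genes, 13 were higher than in non-endocrine cells and 0 lower, with a median log2 ratio of 5.74 beside 0.73 over all genes. Of 16 measured genes of regulated exocytosis, 14 were higher and 0 lower. These 2 lists had 86.7% and 87.5% called, beside 32.3% of all genes in either direction. PCSK2 stood at 557, 554, 524 and 499 CPM in delta cells and 0.914, 2.1, 2.37 and 2.24 in non-endocrine cells, and the calcium-binding protein secretagogin, SCGN, at 3437, 2582, 1924 and 2818 CPM in delta cells and 6.61, 10.6, 7.17 and 4.43 in non-endocrine cells. SCG3 stood at 4577, 3141, 4108 and 4746 CPM in delta cells and 15.9, 21.9, 29.3 and 17.7 in non-endocrine cells. ANXA10 had 489, 552, 536 and 493 CPM in delta cells, 245, 437, 243 and 307 in beta and 0.843, 3.84, 2.37 and 1.55 in non-endocrine cells. Against beta cells, 2 of 15 granins and processing genes (PAM and SCGN) and 2 of 16 exocytosis genes (RIMS1 and RAB3C, only RIMS1 of them relative to the median gene) were higher. These shares of 13.3% and 12.5% stood beside 5.75% of all genes called in either direction. PAM, which amidates peptides, had 270.0, 367, 264 and 320.5 CPM in delta cells, against 64.3, 90.3, 80.6 and 98.8 in beta cells. SYT13, a synaptotagmin, had 569.7, 312, 453 and 514 CPM in delta cells, 55, 67.5, 71.4 and 44.7 in PP cells and 52.2 and 54.3 in alpha cells, and was called higher than in both.

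Receptors were mostly too low to be called, and 5 of 47 matched were measured against beta cells. Of these 2 were higher, SCTR among them, and 0 were lower, or 40% called, beside 5.75% of all genes in either direction. CASR, the calcium-sensing receptor, had 11, 31, 71 and 23 counts in delta cells, or 23.4, 67.7, 120.0 and 117 CPM, against 3.31, 4.12, 17 and 10.0 in beta cells. PP cells had 0, 0, 1.15 and 0 CPM, and non-endocrine cells at most 0.157. Pooled over libraries 1 to 3, CASR was 9.14-fold higher in delta than in beta cells (exact 95% counting interval 7.02 to 11.9), although it had too few counts for a call. The interval covers counting error only and not the spread between libraries. Against alpha cells CASR was called higher.

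GHSR, the ghrelin receptor that marks delta cells in mouse and human, had 3, 14, 27 and 1 counts in delta cells. Its level was 6.38, 30.6, 45.6 and 5.09 CPM in delta cells and 7.45, 20.2, 17.9 and 11 in beta cells, and delta cells were higher in libraries 2 and 3 and lower in libraries 1 and 4. PP cells had 0.128, 0, 0.459 and 0.758 CPM of GHSR, and alpha cells had none in libraries 2 and 3. CRHR2, the receptor on which UCN3 acts, had 6, 2, 6 and 6 counts in delta cells, or 12.8, 4.37, 10.1 and 30.5 CPM, against 0.207, 0.375, 0.789 and 0.251 in beta cells. LEPR, the leptin receptor, had 10.6, 13.1, 20.3 and 5.09 CPM in delta cells and 2.48, 6.18, 2.56 and 7.7 in beta cells. GLP1R, the receptor of the incretin GLP-1, had 65.9, 67.7, 30.4 and 81.4 CPM in delta cells, 58.9, 74.4, 55.2 and 63 in beta and 6.93, 5.71, 2.07 and 6.06 in PP cells. ADRA2A, an adrenergic receptor that curbs insulin release, had 4.25, 15.3, 16.9 and 20.3 CPM in delta cells, against 41.4, 57.9, 36.3 and 27.4 in beta cells. FFAR3, a receptor of the short-chain fatty acids that rumen fermentation yields, had 31.9, 15.3, 18.6 and 5.09 CPM in delta cells, 42.8, 42.5, 27 and 34.5 in beta and 7.95, 8.83, 11.5 and 18.2 in PP cells.

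Of 22 matched delta cell markers other than SST, 18 had at least 1 count in delta cells and 4, EDN3, ERBB4 and PRG4 among them, had none in the 1716729 UMIs of all delta cells, where 3 counts would be 1.75 CPM. The list summed to 3055, 4344, 4392 and 6074 CPM in delta cells, 1449.7, 1752, 1359 and 2162 in beta and 810.0, 911, 1239 and 1802 in PP cells. Against beta cells 5 of 8 measured members were higher and 0 lower, and relative to the median gene 4 were. The 5 were 62.5% of those measured, beside 5.75% of all genes called in either direction. NPTX2, a neuronal pentraxin, had 44.6, 54.6, 40.6 and 56 CPM in delta cells and 4.96, 3.00, 3.55 and 3.76 in beta cells. HHEX, RBP4, FRZB and NPTX2 were the 4, while LEPR, POU3F1, LY6H, CALB1, CBLN4 and BCHE stood at or below 20.3 CPM in every library.

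Of 11 genes of glucose sensing and electrical activity measured against beta cells, HK1 and SCN3A were higher and SLC2A2 was lower, or 27.3% called, beside 5.75% of all genes in either direction. SCN3A, a sodium channel, had 63.8, 72, 99.7 and 61 CPM in delta cells, against 3.52, 16.1, 7.69 and 3.43 in beta cells. ABCC8, a subunit of the ATP-gated potassium channel, had 191, 122, 274 and 203 CPM in delta cells, against 140.2, 131, 183 and 121 in beta cells. KCNJ11, the pore of that channel, had 63.8, 39.3, 40.6 and 45.8 CPM in delta cells, against 61.2, 33, 42 and 43.8 in beta cells. KCNH6, a potassium channel, had no count in delta cells, against 21.5, 48.9, 38.2 and 24.4 CPM in beta, 41.3, 53, 56.7 and 121 in PP and 49.3 and 49 in alpha cells.

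The remaining lists differed in how many of their genes were called. Of 19 measured genes of protein folding and stress in the endoplasmic reticulum, 0 were called against beta or PP cells. Against alpha cells CREB3L2, PDIA3 and CALR were higher, or 15.8%, beside 7.7% of all genes in either direction. Only CREB3L2 of them was called relative to the median gene. The list had a median log2 ratio of 0.91 against alpha cells, beside 0.14 over all genes. PDIA3 was also higher than in non-endocrine cells, though not relative to the median gene. Of 11 immediate early genes, 6 (54.5%) were higher than in PP cells, beside 6.59% of all genes, and 0 were relative to the median gene. Of 8 genes of cAMP signalling, CREM, a cAMP-responsive transcription factor, was higher than in beta cells. That was 12.5% called, beside 5.75% of all genes in either direction. Of 8 genes of neurite guidance and adhesion, 1 was higher and 2, NTM and ROBO1, were lower than in beta cells. Called were thus 37.5%, beside the same 5.75%. ROBO1, a receptor of Slit ligands, had 2.13, 10.9, 11.8 and 10.2 CPM in delta cells, against 49.2, 51.7, 63.7 and 58.4 in beta and 44, 65.4, 91.4 and 82.6 in PP cells, and ROBO2 had 74.4, 122, 106 and 137, against 12.6, 26.5, 28.5 and 27.3 in PP cells. CADM1, an adhesion protein, had 408, 650.4, 352 and 468 CPM in delta cells and 39.6, 44.7, 39 and 31.8 in PP cells. Of 6 imprinted and fetal growth genes, NNAT was higher and PEG10 lower than in beta cells (33.3% called, beside 5.75% of all genes). PEG3 had 527, 528, 527 and 788 CPM in delta cells, against 31.9 and 39.2 in alpha cells.

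Markers of the exocrine tissue were also read in delta cells. CELA1, an elastase of acinar cells, had 863, 716, 495 and 443 CPM in delta cells, against 341, 44.2, 41.4 and 137 in beta, 449, 36.4, 51 and 108 in PP and 15258, 565, 682 and 2447 in non-endocrine cells. It was seen in 59, 73, 86 and 18 delta cells, and the median cell had 483, 502, 384 and 313 CPM. CPB1, a carboxypeptidase, had 1144, 917, 933 and 890.2 CPM in delta cells and 511, 450.4, 457 and 549 in beta cells. All 6 acinar markers outside the rule summed to 2404, 1683, 1506 and 1409 CPM in delta cells, 1053, 537, 560.4 and 749 in beta and 28582, 3182, 5213 and 4222 in non-endocrine cells. CELA1 and CPB1 were called higher than in beta and alpha cells, against beta cells not relative to the median gene. The 12 duct markers summed to 1122, 779, 915 and 661 CPM in delta cells, 132, 164, 290 and 134 in beta, 530.4, 283, 246 and 309.8 in PP and 810.1, 458, 985 and 601 in non-endocrine cells. Of 5 measured against beta cells, 4 were higher (SPP1, SCTR, SOX9 and KRT7, only SPP1 and SCTR of them relative to the median gene) and 0 lower. The 4 were 80% of those measured, beside 5.75% of all genes called in either direction. KRT7, a keratin, had 87.2, 82.9, 137 and 76.3 CPM in delta cells and 39.7, 21.9, 45.3 and 37.6 in beta cells. SOX9 had 70.2, 96, 72.7 and 50.9 CPM in delta cells and 3.1, 27.5, 35.1 and 2.68 in beta cells, and KRT19 had 0, 15.3, 15.2 and 0 CPM in delta cells, 0.207, 7.31, 26.8 and 3.76 in beta and 123, 72.3, 207 and 265 in non-endocrine cells. CFTR and PIGR had no count in delta cells. Duct cells were not set apart from the other non-endocrine cells. The part of free RNA and of neighbouring cells in these levels was not tested.

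Delta cells differed between libraries in genes that free RNA also carried and in genes of cell division. Of 4609 genes with at least 20 counts in the library where their delta level was highest, 1280 (27.8%) had a log2 range of 1 or more. The range ran from the highest to the lowest of libraries 1 to 3, with a median of 0.70. Counting error widens such a range, most at low counts, and its part in the 27.8% was not tested. The widest was LOC102174148, at 1803, 2.18, 3.38 and 178 CPM in delta cells, beside 89224, 309, 890 and 5337 CPM in barcodes of 10 to 100 UMIs, taken as free RNA. The lipase gene PNLIP, at 242, 0, 0 and 30.5 CPM, and LOC102176156, at 17, 4167, 2488 and 20.3 CPM, came next and were likewise highest in free RNA of the libraries where delta cells were high. The next 4 were CENPF, TOP2A, UBE2C and PRC1, all of cell division. TOP2A, which untangles DNA, had 0, 124, 198 and 0 CPM in delta cells of libraries 1 to 4. MKI67 had 0, 39.3, 50.7 and 0 CPM and CENPF 0, 196, 199 and 0 CPM there. At least 2 of MKI67, TOP2A and CDK1 were seen in 0 of 60, 2 of 81 (2.47%), 7 of 107 (6.54%) and 0 of 19 delta cells, 9 in all. With no such cell in libraries 1 and 4, the exact 95% binomial intervals reach up to 5.96% and 17.6%. Beta cells had 0%, 0.900%, 6.58% and 0%, and PP cells 0%, 3.17%, 14.8% and 3.00%. These shares are not thinned to equal depth, and free RNA of library 3 held 90.7 CPM of TOP2A, against 2, 23.3 and 10.3 in libraries 1, 2 and 4. Library 3 was highest in each class, and the intervals of delta and beta cells overlap in every library.

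**Figure D5:**
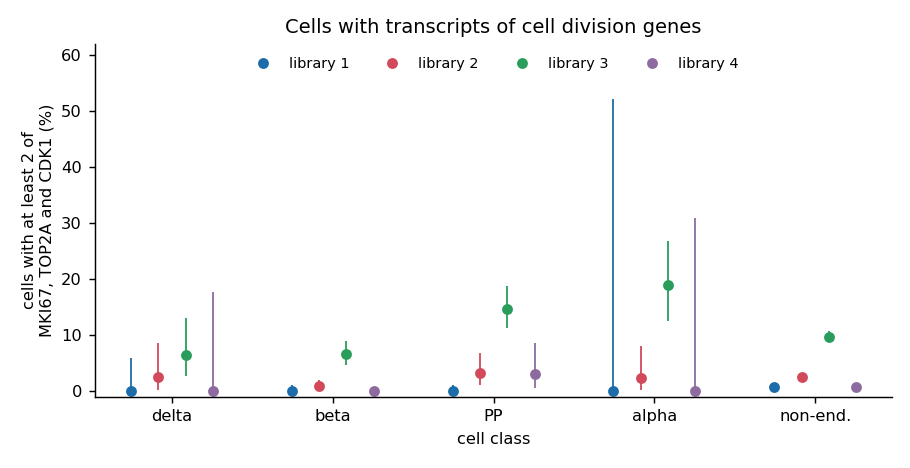
Share of cells with at least 2 of MKI67, TOP2A and CDK1 (vertical axis, percent) by class and library, with exact 95% binomial intervals as lines. Delta cells reach 2.47% in library 2 and 6.54% in library 3 and show none in libraries 1 and 4, and alpha intervals of libraries 1 and 4 rest on 5 and 10 cells.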

How the data were processed

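The deposited values are raw UMI counts per gene and barcode in 1 matrix of 4 libraries, which the authors made with a software version given as Cell Ranger 5.0.1, per the file headers. In contrast, the submitters' processing notes list bcl2fastq 5.01, Cell Ranger 3.1.0 and Seurat 3.1.1. The genome build is not given in the sources used here, and 0 columns of other samples were left aside. Libraries held 43297855, 82817057, 65937591 and 55223412 UMIs. Counts were summed per class and library and compared as described with the results, using python 3.11.15, numpy 2.4.6, scipy 1.17.1, pandas 2.3.3 and scanpy 1.11.5. The genes that chose the classes were left out of the calls. The age comparison could not be run, since no label ties libraries to animals.

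Scrublet called 2, 7, 2 and 0 delta cells as doublets, and its automatic threshold marked 0.0987% of library 4, where it did not work, so no barcode was removed. The call rule was tested on simulated counts of 27137 genes. Over the 4 comparisons it recovered 47 to 50 of 50 genes raised by a log2 change of 3 and 25 to 39 of 50 lowered by as much. It recovered 16 to 33 of 50 raised by 1.5 and 14 to 28 of 50 lowered by 1.5. Of unchanged genes it called 1 of 2401, 0 of 1868, 20 of 3241 and 0 of 2290 against beta, PP, alpha and non-endocrine cells. Both classes and all libraries were drawn from 1 shared profile with random spread, and only measured genes were changed. The simulation thus lacked the median shifts of the data and does not give the recovery there. Named genes were up to 30 called against all 3 hormone classes, the 25, 20, 15 and 10 widest calls against beta, PP, alpha and non-endocrine cells, and members of 24 lists, 456 of whose 477 genes were matched. Symbols were matched through the RefSeq table of ARS1.2, used for names and neighbours only. The members and lists were chosen with earlier results of these data known. Some called or listed genes are counted but not reported here by name. PDX1, PAM, ROBO2, SOX9, KRT7, COL6A3 and other list members outside that ranking are examples chosen after their values were seen.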

Additional observations from a re-analysis of the deposited data

Results flagged for a closer look

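Barcodes of 1000 or more but fewer than 3500 UMIs, below the depth limit and used in no comparison, also held some in which SST passed the same hormone limits. Libraries 1 to 4 held 20, 27, 30 and 26 of them, or 103 in all. The acinar, PTPRC and gene limits, which the 267 delta cells also passed, left 10, 27, 30 and 22 of them, or 89 in all. They stood out as a signal in data outside the main measurement. They came from 3053, 4452, 1579 and 4352 barcodes of that depth. In library 4 the 22 that passed every other limit outnumbered its 19 delta cells.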

How the results depend on the processing

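No paired analysis was possible because no label ties a library to an animal, an age or a replicate number, and the planned edgeR comparison of ages was not run. Calls rest on 3 libraries, on 2 against alpha cells, and describe them without a test. Low receptors and transcription factors fall under the count minimum, so no call there says nothing of equal levels. Against non-endocrine cells the balance of calls turned, with 729 higher and 254 lower, but 348 higher and 409 lower relative to the median gene. The 70 calls of genes ranked against a single class were recomputed under 9 settings that could lose them, and 66 of the 630 values were lost: 18 with thinned cells, 1 with the hormone at 5% of UMIs, 24 with 10 barcodes per class and 23 with 50 counts. Of the 46 genes higher and 6 lower than in all 3 classes, 7 and 2 were lost with a pseudocount of 10 CPM, 13 and 0 without the hormones and 15 and 0 relative to the median gene. There were 22 and 3 lost with 50 counts, 31 and 4 with 10 barcodes and 19 and 3 with thinned cells. Each of the stricter hormone limits lost 2 and 1, as did leaving out the highest Scrublet scores. The limit of 10 barcodes brought library 4, with its 19 delta and 10 alpha cells, into every comparison. Calls then had to pass the ratio and count limits there too.

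Genes higher in delta cells against beta (122) numbered 77 relative to the median gene, 221 with a minimum of 10 counts, 52 with 50 counts, 65 with 10 barcodes per class and 65 with cells thinned to 3500 UMIs. Genes lower (44) numbered 78 without the 4 hormones in the total, 68, 19, 26 and 25. Against PP cells, genes higher (182) numbered 91 without the hormones, 80 relative to the median gene, 340, 71, 69 and 79, and genes lower (32) 74, 55, 16 with 50 counts, 18 with 10 barcodes and 16 thinned. Against alpha cells, genes higher (192) numbered 341, 75, 38 and 121, and genes lower (86) 149, 37 and 30 with 10 barcodes. Against non-endocrine cells, genes higher (729) numbered 348 relative to the median gene, 1206, 296, 311 and 302, and genes lower (254) 409 relative to the median gene, 430 and 114. Genes higher than in all 3 hormone classes (46) numbered 91, 24, 15 and 27, and genes lower (6) 3 with 50 counts, 2 with 10 barcodes and 3 thinned. A minimum of 5000 UMIs left 175 members and a share of 5.52% of hormone cells, against 267 and 7.14%.

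With each library left out in turn, counts higher and lower ranged over 122 to 200 and 44 to 73 against beta, 182 to 318 and 32 to 47 against PP, 192 to 422 and 86 to 271 against alpha, 729 to 1204 and 254 to 434 against non-endocrine cells, and 46 to 81 and 6 to 9 against all 3 classes. Fewer libraries must then pass the same limit, so no call can be lost. Without library 1 the counts were 186 and 73 against beta and 1204 higher against non-endocrine cells. Without library 2 they were 200 higher against beta, 286 against PP, 408 higher and 271 lower against alpha, 434 lower against non-endocrine cells and 81 higher against all 3. Without library 3 they were 318 higher against PP and 422 higher and 201 lower against alpha. Members numbered 160 to 248 and their share 6.15% to 8.6%, with 160 members without library 3.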
